A study of Rattus norvegicus with 18 samples.

Results

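The tricarboxylic acid (TCA) cycle enzymes described here are 9 genes, namely Cs, Idh2, Idh3a, Ogdh, Dlst, Suclg1, Fh, Mdh1 and Mdh2. They were chosen by symbol, and all 9 were present in a table of 13188 genes measured by RNA-seq in 18 libraries of rat fibroblasts. The cells were HO15.19, a Rat1 derivative in which both copies of endogenous myc have been disrupted (myc-/-), grown in 10% fetal bovine serum and sequenced after poly-A selection. The 6 groups of 3 cultures were myc-/- cells without transfection, myc-/- cells with a control siRNA (myc-/- siCtrl), myc-/- cells carrying human MYC without transfection (myc-/- + MYC), and the MYC-carrying cells with the control siRNA (myc-/- + MYC siCtrl) or with 1 of 2 siRNAs against the aryl hydrocarbon receptor AHR (siAHR-2 and siAHR-5). All siRNAs were used at 40 nM for 48 h. Serum and siRNA concentrations are those of the labels, and the study's general methods give other ones. MYC was delivered by stable viral infection and driven by a vector promoter. The study's methods describe its myc-/- cells as carrying the vector alone, while the labels name no vector for them. Nothing in the labels says whether the 3 cultures of a group were grown separately, and p-values therefore measure only the spread between these libraries.

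The TCA cycle oxidises the acetyl group of acetyl-CoA in the mitochondrial matrix and passes the electrons to NADH and FADH2 for respiration. In growing cells it also supplies citrate for lipid synthesis, 2-oxoglutarate for glutamate and oxaloacetate for aspartate, and glutamine can refill it at 2-oxoglutarate. MYC is a transcription factor known for raising genes of nutrient uptake and biosynthesis, while AHR is a ligand-activated transcription factor known for its response to xenobiotics. The comparisons ask how the mRNA of each enzyme differed with MYC and with silencing of AHR in MYC-carrying cells.

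The deposited log2 values fell into a smaller set of 6 libraries, holding myc-/- siCtrl and myc-/- + MYC, and a larger set of 12, holding the other groups, each on its own scale. The leading principal component separated these sets with 74.7% of the variance, and the means of the 9 enzymes lay between 0.68 and 1.32 higher in log2 units for the larger set, so that groups were compared only within a set. By the labels, MYC and transfection changed together within each set, and their effects cannot be told apart. The columns of the smaller set are headed control and Myc, names that do not mention transfection, and were tied to their samples by the description field of the labels, so that which arm of that set was transfected rests on that field. The log2 fold change (log2FC) was tested with limma, p-values were adjusted over all genes, and a gene was called when it differed by a fold of at least 1.5 with an adjusted p of at most 0.01. Rat Myc mRNA was still present in all libraries and lower with MYC, at 9.16 to 9.47 against 8.01 to 8.08 in the smaller set. In the larger set it was 10.82 to 10.94 in myc-/- cells against 8.16 to 8.27 with MYC and siCtrl. The human transgene was not analysed here. Ahr stood at 13.22 to 13.34 with siCtrl, 11.97 to 12.03 with siAHR-2 and 11.76 to 11.95 with siAHR-5. Of the 7 fibroblast markers, all in the table, 4 were called lower with MYC in each set, and Col3a1 was called higher in the smaller set. Their summed level was 20.76 to 20.78 in myc-/- siCtrl cells and 19.77 to 19.86 with MYC, and 21.93 to 22.16 in myc-/- cells and 20.17 to 20.19 with MYC and siCtrl. Col1a1 had a log2FC of -1.73 in the smaller set and -5.95 in the larger set. The others called lower were Fn1 (-1.76 and -1.80), Pdgfrb (-1.72 and -3.08) and Thy1 (-1.15 and -2.20). Col1a2 stood low throughout, at group means of 3.64 to 4.08. The 3 epithelial markers measured summed to 6.43 to 9.10, with Krt8 called higher with MYC in both sets, and the 3 endothelial and blood markers to 7.42 to 8.06. The part of these shifts in the results below was not tested.

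Promoter sequences were taken for the enzymes differing most with MYC in the larger set, Idh2 and Mdh2 (higher) and Suclg1 and Ogdh (lower). A sequence was also taken for Fh, which differed between the siRNAs against AHR. Each is the 250 bases before the annotated start in RefSeq, build GRCr8, 5′ to 3′ on the strand of the gene, and 8 of the 9 enzymes matched an entry (Idh3a did not). Capitals mark CACGTG, the E-box bound by MYC with MAX, and GCGTG or its reverse complement CACGC, the core of the AHR response element. The motifs did not overlap each other. The windows are Idh2 at chr1:143467249-143467498 (minus strand), Mdh2 at chr12:26543842-26544091 (minus strand), Suclg1 at chr4:106866079-106866328 (plus strand), Ogdh at chr14:85363781-85364030 (plus strand) and Fh at chr13:90082451-90082700 (minus strand).
Idh2: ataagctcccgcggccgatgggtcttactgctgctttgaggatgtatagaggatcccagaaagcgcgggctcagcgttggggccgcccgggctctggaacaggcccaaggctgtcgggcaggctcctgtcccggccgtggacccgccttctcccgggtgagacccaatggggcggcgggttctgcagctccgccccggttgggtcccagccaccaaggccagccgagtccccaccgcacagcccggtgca
Mdh2: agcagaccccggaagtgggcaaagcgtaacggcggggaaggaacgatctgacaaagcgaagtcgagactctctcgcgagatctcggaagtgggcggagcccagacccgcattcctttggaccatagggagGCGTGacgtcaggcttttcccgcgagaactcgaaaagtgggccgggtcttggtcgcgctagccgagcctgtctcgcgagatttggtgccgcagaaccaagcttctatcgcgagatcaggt
Suclg1: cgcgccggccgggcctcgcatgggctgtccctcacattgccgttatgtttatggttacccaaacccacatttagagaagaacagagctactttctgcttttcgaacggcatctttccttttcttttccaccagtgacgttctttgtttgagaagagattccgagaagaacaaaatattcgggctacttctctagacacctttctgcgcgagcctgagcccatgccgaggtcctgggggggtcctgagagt
Ogdh: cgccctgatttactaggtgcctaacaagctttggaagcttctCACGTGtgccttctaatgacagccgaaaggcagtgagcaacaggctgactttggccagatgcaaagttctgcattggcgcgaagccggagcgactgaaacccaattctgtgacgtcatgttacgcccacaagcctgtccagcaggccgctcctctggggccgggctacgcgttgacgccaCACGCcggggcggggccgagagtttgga
Fh: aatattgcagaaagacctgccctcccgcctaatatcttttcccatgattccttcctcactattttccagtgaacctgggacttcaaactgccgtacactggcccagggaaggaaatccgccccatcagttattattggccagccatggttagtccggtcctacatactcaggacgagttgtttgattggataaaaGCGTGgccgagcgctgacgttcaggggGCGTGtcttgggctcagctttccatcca

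CACGTG was found in 1 of the 8 windows, that of Ogdh, where it begins 208 bases before the start. Among all 33469 windows of this length, 5.59% hold it. GCGTG on either strand was found in 3 of the 8 windows and in 25.9% of all windows. It lies 28 bases before the start in Ogdh, 55 and 28 bases before it in Fh, and 120 bases before it in Mdh2. The windows of Idh2 and Suclg1, like those of Cs, Dlst and Mdh1, hold neither run of letters.

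With MYC the 9 enzymes differed in both directions. In the smaller set, 4 stood higher and 5 lower, and 1 of 9 was called, Idh2, against 26.8% of all genes. In the larger set the same 4 stood higher and the same 5 lower, and 3 of 9 were called, Idh2 higher and Ogdh and Suclg1 lower, against 25.5% of all genes. Of the 5 lower ones, Idh3a, Dlst and Mdh1 changed sign under quantile normalization in the smaller set and Dlst in the larger. In bulk RNA, fewer cells of a type and less RNA per cell cannot be told apart. The libraries of the groups did not overlap for any of the 9 enzymes in either set, which held for 78.8% of all genes in the smaller set and 70.5% in the larger set. At any fold, 7 of 9 passed the p cutoff in the smaller set and 8 of 9 in the larger, against 68.7% and 53.8% of all genes, and at an adjusted p below 0.05 the counts were 8 and 9, against 76.2% and 64.7%. The counts at the p cutoff became 8 and 6 after quantile normalization, against 68.6% and 57.1% of all genes, and 9 and 8 after median centring, against 72.4% and 61.2%. The median log2FC of the enzymes was -0.06 in the smaller set and -0.19 in the larger set, while that of all genes was 0.00 in both, and quantile normalization gave 0.16 and 0.01 for the enzymes. The median size of the change was 0.26 and 0.41 for the enzymes and 0.29 and 0.28 for all genes. Idh2 was the one enzyme called in the same direction in both sets, as were 15.8% of all genes.

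**Figure D1:**
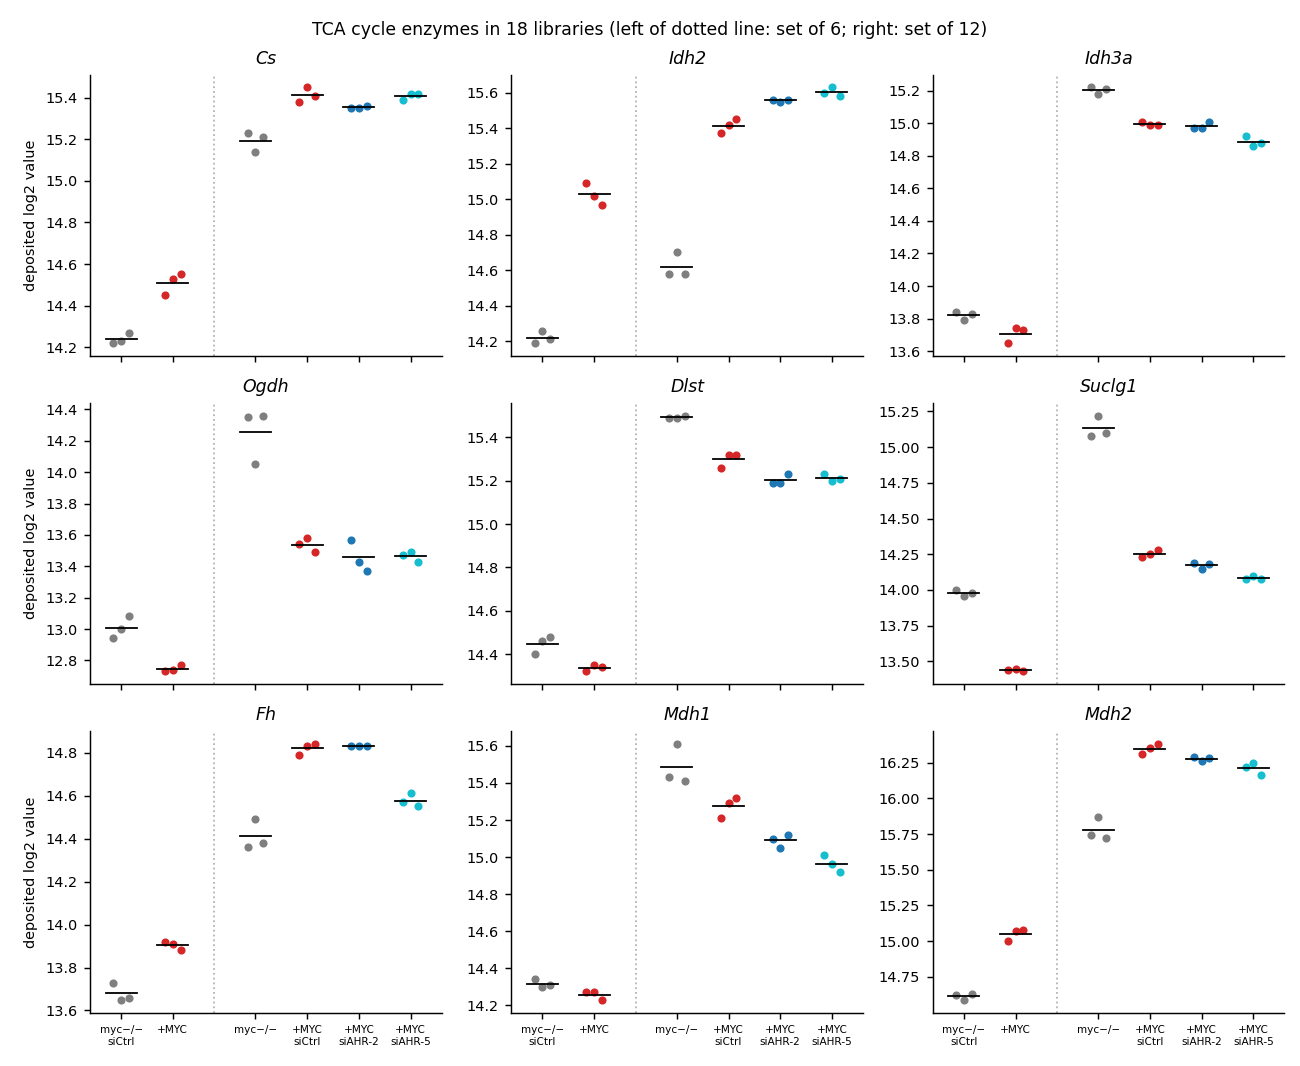
Deposited log2 value (vertical axis, a separate range for each gene) of the 9 enzymes in each of the 18 libraries, with points for libraries, a line for the mean of each group of 3 and a dotted line between the sets, which are on different scales. Idh2 lies at 14.19 to 14.26 without MYC and 14.97 to 15.09 with it in the smaller set, and Suclg1 lies at 15.08 to 15.22 without MYC and 14.23 to 14.28 with it in the larger set.

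The cycle begins with citrate synthase (Cs), which joins acetyl-CoA to oxaloacetate. In the smaller set, Cs was 14.22, 14.23 and 14.27 in myc-/- siCtrl cells and 14.45, 14.53 and 14.55 with MYC. In the larger set it was 15.23, 15.14 and 15.21 in myc-/- cells and 15.38, 15.45 and 15.41 with MYC and siCtrl. All MYC libraries lay above all myc-/- libraries of their set, by less than the called fold. The log2FC was 0.26 (SE 0.0335, limma adjusted p = 2.18e-05) and 0.22 (SE 0.0345, adjusted p = 0.00187), or 0.49 and 0.41 after quantile normalization.

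Isocitrate is oxidised in the matrix by an NADP-dependent enzyme, Idh2, which can also run in reverse, and by the NAD-dependent complex, whose catalytic subunit is Idh3a. Idh2 was 14.19, 14.26 and 14.21 in myc-/- siCtrl cells and 15.09, 15.02 and 14.97 with MYC. In the larger set it was 14.58, 14.70 and 14.58 without and 15.37, 15.42 and 15.45 with MYC. The gap between the groups was several times the range within either group. The change corresponded to a fold of 1.75 in the smaller set (log2FC 0.81, SE 0.0358, limma adjusted p = 2.65e-09) and 1.73 in the larger set (log2FC 0.79, SE 0.0443, adjusted p = 2.11e-05). By log2FC, Idh2 ranked 984 and 853 from the top of the 13188 genes.

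Idh3a was 13.84, 13.79 and 13.83 without and 13.65, 13.74 and 13.73 with MYC in the smaller set, and 15.22, 15.18 and 15.21 without and 15.01, 14.99 and 14.99 with MYC in the larger set. It was lower in all MYC libraries, by a small amount. The log2FC was -0.11 (SE 0.0328, limma adjusted p = 0.0101) in the smaller set, where quantile normalization turned it to 0.07, and -0.21 (SE 0.0242, adjusted p = 0.000502) in the larger set, where that scaling left -0.02.

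Since both genes were read in the same library, their difference does not depend on a scale factor of the library. Idh2 minus Idh3a, which also contains the unequal lengths of their mRNAs, was 0.35 to 0.47 without and 1.23 to 1.44 with MYC in the smaller set, and -0.65 to -0.48 without and 0.36 to 0.46 with MYC in the larger set. The ratio of Idh2 to Idh3a mRNA was higher with MYC by a fold of 1.89 and 2.00. Idh3a is 1 subunit of its complex, and another, Idh3g, had a log2FC of 0.09 and 0.14 with MYC, without being called. The groups did not overlap, and the 2-sided exact permutation p was 0.1 in each set, the smallest that 3 against 3 libraries allow.

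**Figure D2:**
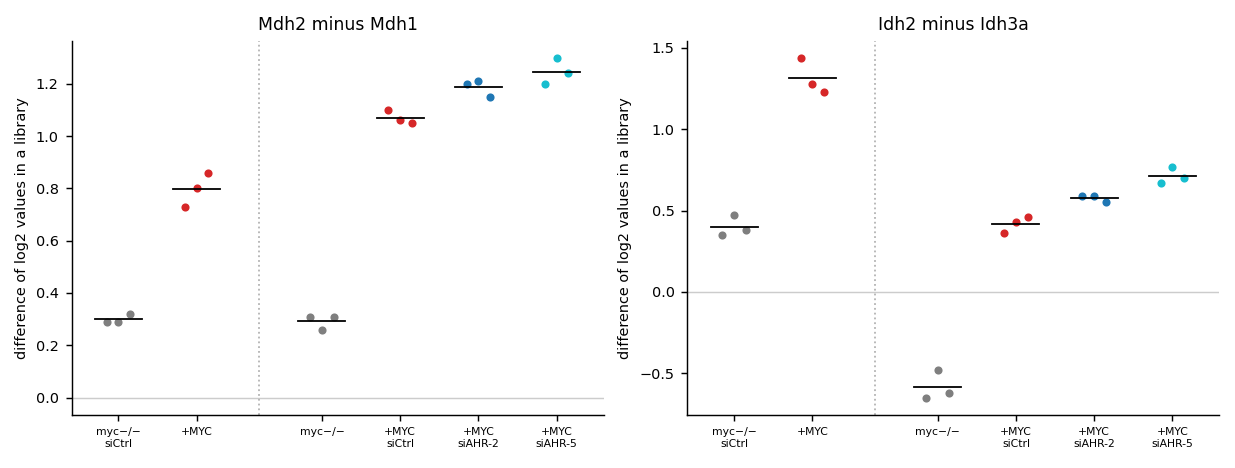
Difference of deposited log2 values within each library (vertical axis) for Mdh2 minus Mdh1 and for Idh2 minus Idh3a, with points for libraries, lines for group means and a dotted line between the sets. Mdh2 minus Mdh1 lies at 0.29 to 0.32 in myc-/- siCtrl cells, 0.26 to 0.31 in myc-/- cells and at 0.73 or above in every MYC library.

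The 2-oxoglutarate dehydrogenase complex makes succinyl-CoA; Ogdh is its E1 component, which decarboxylates 2-oxoglutarate, and Dlst its E2 core, which carries the lipoyl group. Ogdh was 12.94, 13.00 and 13.08 without and 12.73, 12.74 and 12.77 with MYC in the smaller set. In the larger set it was 14.35, 14.05 and 14.36 without and 13.54, 13.58 and 13.49 with MYC. Ogdh was lower with MYC in both sets, and the myc-/- library of replicate 2 stood below the others of its group, which spanned 0.30 in all. The log2FC was -0.26 (SE 0.0375, limma adjusted p = 6.76e-05), a fold of 0.836, in the smaller set and -0.72 (SE 0.0887, adjusted p = 0.000652), a fold of 0.608, in the larger set. Without that library the latter was -0.82.

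Dlst was 14.40, 14.46 and 14.48 without and 14.32, 14.35 and 14.34 with MYC in the smaller set, and 15.49, 15.49 and 15.50 without and 15.26, 15.32 and 15.32 with MYC in the larger set. The log2FC was -0.11 (SE 0.0295, limma adjusted p = 0.00605) and -0.19 (SE 0.0270, adjusted p = 0.00116). Its direction depended on the scaling, since quantile normalization gave 0.12 and 0.01.

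Succinyl-CoA ligase releases succinate and forms GTP or ATP, and Suclg1 is the alpha subunit shared by both forms. Suclg1 was 14.00, 13.96 and 13.98 without and 13.44, 13.45 and 13.43 with MYC in the smaller set. In the larger set it was 15.08, 15.22 and 15.10 without and 14.23, 14.25 and 14.28 with MYC. Among the enzymes this was the largest drop in each set. The log2FC was -0.54 (SE 0.0274, limma adjusted p = 8.23e-09), a fold of 0.688 that missed the fold cutoff, in the smaller set and -0.88 (SE 0.0426, adjusted p = 1.21e-05), a fold of 0.544, in the larger set. Of the whole table, the 3 genes whose profiles over the 12 libraries lay closest to that of Suclg1 were Ilk, Sdf4 and Raly, with root-mean-square distances of 0.0302, 0.0339 and 0.0346 between centred log2 values. Their log2FC with MYC in the smaller set, which the distance did not use, was -0.63, -0.81 and -0.65.

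Fumarate hydratase (Fh) adds water to fumarate to make malate. It was 13.73, 13.65 and 13.66 without and 13.92, 13.91 and 13.88 with MYC in the smaller set, and 14.36, 14.49 and 14.38 without and 14.79, 14.83 and 14.84 with MYC in the larger set. Every MYC library was above every myc-/- library of its set. The log2FC was 0.23 (SE 0.0313, limma adjusted p = 4.56e-05) and 0.41 (SE 0.0425, adjusted p = 0.000301), both below the fold cutoff, or 0.41 and 0.55 after quantile normalization.

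Malate is oxidised to oxaloacetate by Mdh2 in the matrix and by Mdh1 in the cytosol, and the pair forms part of the malate-aspartate shuttle. Mdh2 was 14.62, 14.59 and 14.63 without and 15.00, 15.07 and 15.08 with MYC in the smaller set, and 15.74, 15.87 and 15.72 without and 16.31, 16.35 and 16.38 with MYC in the larger set. Mdh2 was higher with MYC in both sets. The log2FC was 0.44 (SE 0.0307, limma adjusted p = 1.31e-07) in the smaller set and 0.57 (SE 0.0479, adjusted p = 0.000120) in the larger set, a fold of 1.48, just under the fold cutoff. It passed in both sets after quantile normalization (0.67 and 0.73), and in the larger set after median centring (0.61), without the myc-/- library of replicate 2 (0.61) and without the siCtrl library of replicate 1 (0.59).

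Mdh1 was 14.34, 14.30 and 14.31 without and 14.27, 14.27 and 14.23 with MYC in the smaller set, and 15.43, 15.61 and 15.41 without and 15.21, 15.29 and 15.32 with MYC in the larger set. Its log2FC of -0.06 (SE 0.0279, limma adjusted p = 0.0699) and -0.21 (SE 0.0644, adjusted p = 0.0286) missed the p cutoff in both sets, and quantile normalization gave 0.16 and -0.01. In the smaller set Mdh1 passed the p cutoff under both scalings, in opposite directions. The limma adjusted p was 0.000381 after quantile normalization and 0.00525 after median centring, where the log2FC was -0.10. The myc-/- library of replicate 2 was the highest for Mdh1, and without it the value in the larger set was -0.15.

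Within each library, Mdh2 minus Mdh1 was 0.29 to 0.32 without and 0.73 to 0.86 with MYC in the smaller set, and 0.26 to 0.31 without and 1.05 to 1.10 with MYC in the larger set. The ratio of Mdh2 to Mdh1 mRNA was therefore 1.41-fold and 1.72-fold higher with MYC. The groups did not overlap in either set (2-sided exact permutation p = 0.1, the smallest possible here). Both pairs were picked as enzymes of the same reaction with earlier results known, so their values are a description.

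**Figure D3:**
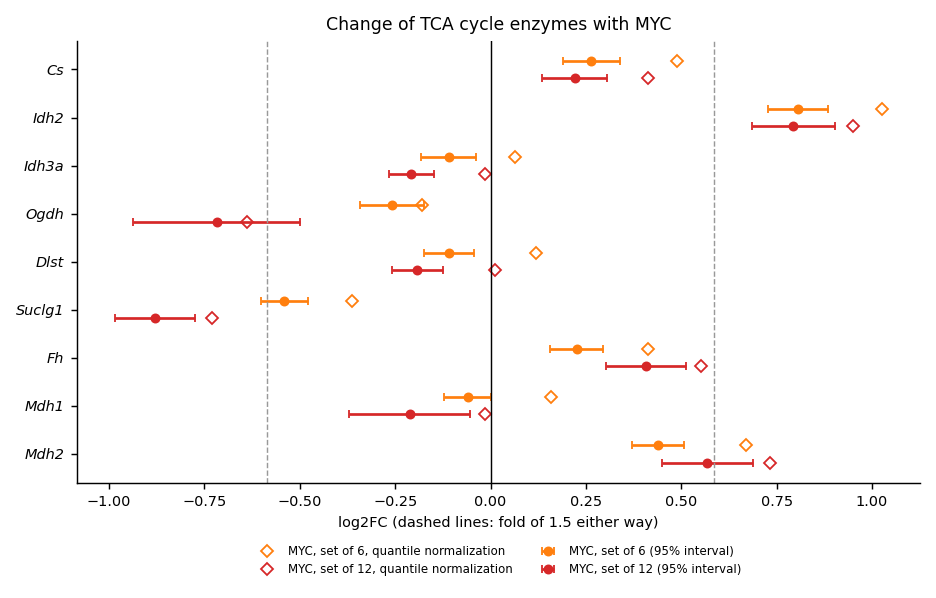
log2FC with MYC (horizontal axis) of the 9 enzymes in the smaller set (orange) and the larger set (red), with filled points and 95% intervals from limma, open diamonds for the values after quantile normalization, and dashed lines at a fold of 1.5. Idh2 lies at 0.81 and 0.79 and Suclg1 at -0.54 and -0.88, while the diamonds of Idh3a, Dlst and Mdh1 lie on the other side of 0 in the smaller set.

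The size of the MYC difference was compared between the sets in one limma fit. None of the 9 enzymes was called, against 16.5% of all genes, and 5 had an unadjusted p under 0.05, as did 59.6% of all genes. At any fold, 2 of 9 passed the p cutoff, against 43.2% of all genes, and at an adjusted p below 0.05 the count was 3, against 54.9%. After median centring 4 of 9 passed the p cutoff, against 49.4% of all genes, Fh (adjusted p = 0.00113) and Mdh2 (adjusted p = 0.00799) being added. The drop of Ogdh was larger in the larger set by 0.46 on the log2 scale (SE 0.0934, adjusted p = 0.000715). That of Suclg1 was larger by 0.34 (SE 0.0535, adjusted p = 7.97e-05). Both passed the p cutoff but not the fold cutoff. For Idh2 the difference between the sets was -0.01, with a 95% interval of -0.14 to 0.12. For Cs it was -0.04 (-0.16 to 0.07). Median centring turned these values to 0.07 for Idh2 and 0.04 for Cs. The sets differ in scale and in which arm was transfected, and what causes the differences was not tested.

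AHR was silenced in MYC-carrying cells, and both siRNAs were compared with the same 3 siCtrl libraries. With siAHR-2 none of the 9 was called, against 0.47% of all genes, 6 had an unadjusted p under 0.05 in limma, as did 40.4% of all genes, and the groups did not overlap for 6 of 9, against 43.3% of all genes. With siAHR-5 none was called, against 2.32% of all genes, 7 had an unadjusted p under 0.05, as did 47.8%, and the groups did not overlap for 7 of 9, against 50.5%. At any fold, 1 of 9 passed the p cutoff with siAHR-2 and 4 of 9 with siAHR-5, against 14.5% and 23.4% of all genes, and at an adjusted p below 0.05 the counts were 4 and 7, against 29.3% and 39.2%. The counts at the p cutoff depended on the scaling, being 4 and 7 of 9 after median centring, against 23.5% and 35.9% of all genes, and 1 and 4 after quantile normalization, against 17.1% and 25.9%. The log2FC ranged from -0.18 (Mdh1) to 0.14 (Idh2) with siAHR-2 and from -0.31 (Mdh1) to 0.19 (Idh2) with siAHR-5. The median was -0.07 and -0.11 for the enzymes and 0.00 and 0.01 for all genes, and quantile normalization gave 0.01 and -0.05 for the enzymes. The summed level of the fibroblast markers was 19.92 to 19.96 with siAHR-2 and 19.88 to 19.89 with siAHR-5, below the siCtrl range given above. Among these markers Thy1 was called higher with siAHR-5 (log2FC 0.75), Thy1 (0.67) and Pdgfrb (0.64) were called higher with siAHR-5 than with siAHR-2, and Vim stood at -0.36 and -0.48 without being called. Their part in the results with the siRNAs was not tested.

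Idh2 was 15.56, 15.55 and 15.56 with siAHR-2 and 15.60, 15.63 and 15.58 with siAHR-5, all above the siCtrl libraries given above (15.37 to 15.45). The log2FC was 0.14 (SE 0.0206, limma adjusted p = 0.00586) with siAHR-2 and 0.19 (SE 0.0261, adjusted p = 0.00361) with siAHR-5. Both values passed the p cutoff, at folds of 1.11 and 1.14. Idh3a was 14.97, 14.97 and 15.01 with siAHR-2, overlapping siCtrl, and 14.92, 14.86 and 14.88 with siAHR-5. Its log2FC was -0.01 (adjusted p = 0.635), or 0.02 after quantile normalization, and -0.11 (SE 0.0217, adjusted p = 0.0116), or -0.17 after median centring.

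Mdh1 was 15.10, 15.05 and 15.12 with siAHR-2 and 15.01, 14.96 and 14.92 with siAHR-5, against 15.21 to 15.32 with siCtrl. The log2FC was -0.18 (SE 0.0359, limma adjusted p = 0.0164), or -0.12 after quantile normalization, and -0.31 (SE 0.0395, adjusted p = 0.00268). With siAHR-2, median centring gave -0.21 (limma adjusted p = 0.00188), past the p cutoff. Mdh1 was thus below siCtrl in all 6 knockdown libraries. Mdh2 was 16.29, 16.26 and 16.28 with siAHR-2 and 16.22, 16.25 and 16.16 with siAHR-5, a log2FC of -0.07 (adjusted p = 0.0718) and -0.14 (adjusted p = 0.0215) that quantile normalization turned to 0.03 and 0.00. Median centring instead gave -0.10 (limma adjusted p = 0.0132) and -0.19 (adjusted p = 0.000959), the latter past the p cutoff. Mdh2 minus Mdh1 was 1.15 to 1.21 with siAHR-2 and 1.20 to 1.30 with siAHR-5, above the 1.05 to 1.10 of siCtrl.

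Suclg1 was 14.19, 14.15 and 14.18 with siAHR-2 and 14.08, 14.10 and 14.08 with siAHR-5, below the 14.23 to 14.28 of siCtrl. The log2FC was -0.08 (SE 0.0186, limma adjusted p = 0.0277), or -0.04 after quantile normalization (adjusted p = 0.332), and -0.17 (SE 0.0194, adjusted p = 0.00191). Median centring gave -0.11 for Suclg1 with siAHR-2 (limma adjusted p = 0.0081), past the p cutoff. Fh was 14.83 in each of the 3 libraries with siAHR-2, within the range of siCtrl, and 14.57, 14.61 and 14.55 with siAHR-5. The log2FC of Fh was 0.01 (adjusted p = 0.714) with siAHR-2, or -0.02 after median centring, and -0.24 (SE 0.0239, adjusted p = 0.00115) with siAHR-5. Fh was separated from siCtrl with one of the siRNAs.

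Ogdh was 13.57, 13.43 and 13.37 with siAHR-2 and 13.47, 13.49 and 13.43 with siAHR-5, and its log2FC of -0.08 (limma adjusted p = 0.385) and -0.07 (adjusted p = 0.131) had 95% intervals that included 0. With siAHR-2 it lay between -0.13 without the siAHR-2 library of replicate 1 and -0.03 without that of replicate 3, and with siAHR-5 it was -0.13 after median centring (adjusted p = 0.0114). Dlst was 15.19, 15.19 and 15.23 with siAHR-2 and 15.23, 15.20 and 15.21 with siAHR-5. Its log2FC was -0.10 (adjusted p = 0.0261) and -0.09 (adjusted p = 0.0276), or -0.03 and -0.04 after quantile normalization and -0.13 and -0.15 after median centring. Cs was 15.35, 15.35 and 15.36 with siAHR-2 and 15.39, 15.42 and 15.42 with siAHR-5, and its log2FC was -0.06 (adjusted p = 0.0812) and 0.00 (adjusted p = 0.991). The sign of the value for Cs depended on the scaling, at 0.01 after quantile normalization with siAHR-2 and -0.06 after median centring with siAHR-5.

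**Figure D4:**
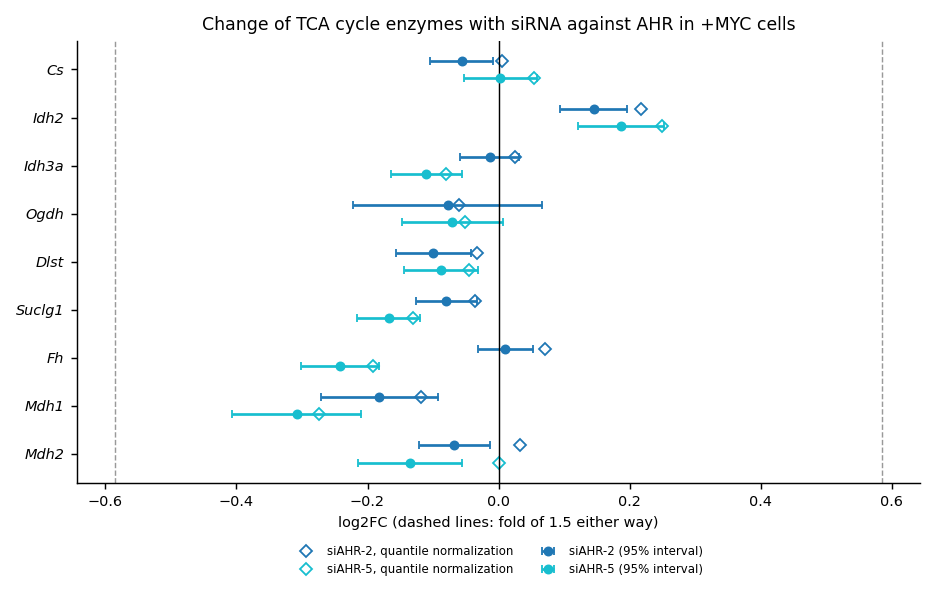
log2FC of the 9 enzymes (horizontal axis) with siAHR-2 (blue) and siAHR-5 (cyan) against siCtrl in MYC-carrying cells, with filled points and 95% intervals from limma, open diamonds for quantile normalization and dashed lines at a fold of 1.5. All points lie between -0.31 and 0.19, and the siRNAs are farthest apart for Fh, at 0.01 and -0.24.

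The siRNAs were then compared with each other. No enzyme was called, against 2.18% of all genes, and 6 had an unadjusted p under 0.05 in limma, as did 46.8% of all genes. The libraries did not overlap for 7 of 9 enzymes, against 49.5% of all genes. At any fold, 2 of 9 passed the p cutoff, against 24.4%, and at an adjusted p below 0.05 the count was 5, against 39.1%. Fh was lower with siAHR-5 than with siAHR-2 by 0.25 on the log2 scale (SE 0.0183, limma adjusted p = 0.000407), a fold of 0.840, with no overlap of the libraries. Suclg1 was lower by 0.09 (SE 0.0166, adjusted p = 0.00979), which did not pass after quantile normalization (adjusted p = 0.0177) while Idh3a (0.00729) and Mdh1 (0.00606) did. After median centring Fh, Suclg1, Idh3a and Mdh1 passed, 4 of 9 against 29.1% of all genes. For Idh2 the siRNAs differed by 0.04, with a 95% interval of -0.0019 to 0.0853, and for Dlst by 0.01 (-0.03 to 0.06), or -0.01 after quantile normalization.

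Other genes around the cycle were read from 4 lists, chosen with earlier results of these data known. Of 45 listed genes 40 were in the table, and Idh3b, Slc25a12, Slc25a13, Sdhaf1 and Sdhaf4 were not analysed here. With MYC, 5 of the 40 were called higher and 3 lower in the smaller set, and 5 higher and 4 lower in the larger set. The corresponding shares of all genes were 12.5% and 14.3% in the smaller set and 10.8% and 14.7% in the larger set. The median log2FC of the 40 genes was 0.02 and 0.16.

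Of the 10 other cycle enzymes measured, which include aconitase, succinate dehydrogenase and the remaining subunits of the dehydrogenase and ligase complexes, 1 was called higher and none lower in each set (unadjusted p under 0.05 for 7 of 10 in the smaller set and 6 in the larger set in limma, against 77.5% and 67.3% of all genes). It was Ogdhl, an E1 component related to Ogdh, with a log2FC of 0.63 (SE 0.0434, limma adjusted p = 1.13e-07) and 0.63 (SE 0.0370, adjusted p = 2.53e-05). The sign of the change in Ogdhl was opposite to that of Ogdh in both sets, at group means of 11.50 and 12.13 in the smaller set and 11.77 and 12.40 in the larger set.

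Of 14 genes of pyruvate entry, 3 were called higher and 1 lower in the smaller set, and 1 higher and 1 lower in the larger set. The largest change was that of Pdk2 in the smaller set (log2FC 0.93) and that of Pdk1 in the larger set (log2FC 1.18), both kinases that switch off pyruvate dehydrogenase. Pdk2 had a log2FC of 0.24 in the larger set and Pdk1 of 0.01 in the smaller set. The differences between the sets, -0.68 for Pdk2 and 1.16 for Pdk1, were themselves called (limma adjusted p = 5.32e-05 and 2.56e-11). Not all kinases of this list stood higher, since Pdk3 had a log2FC of -0.40 and -0.63 and was called in the larger set. Called in the smaller set were also Pdk4 (0.59), Pdp1 (-0.63) and Pdp2 (0.86). In the larger set these had 0.38, -0.37 and 0.39.

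Of 11 cytosolic counterparts and shuttle genes, 1 was called higher and 1 lower in each set. Acly, which cleaves exported citrate to acetyl-CoA for lipid synthesis, was called in both, with a log2FC of 0.62 (SE 0.0489, limma adjusted p = 3.72e-07) and 0.83 (SE 0.0550, adjusted p = 4.28e-05). Me2, a mitochondrial malic enzyme, had the largest change in the smaller set (log2FC -0.89) and 0.11 in the larger set, a difference of 1.00 (adjusted p = 8.04e-10).

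Of 5 genes of lipoylation and succinate dehydrogenase assembly, 1 was called lower in the smaller set, and 2 were called higher and 2 lower in the larger set. Lipt2, which places the octanoyl precursor of lipoate on its carrier protein, had the largest change of this list in both, with a log2FC of -0.91 (SE 0.0528, limma adjusted p = 2.51e-08) and -1.18 (SE 0.107, adjusted p = 0.000166). Lias, which adds the sulfur atoms to make lipoate, had a log2FC of 0.46 in the smaller set, below the fold cutoff, and 0.66 in the larger set, where it was called. Lipt1 (0.43 and 0.72) and Sdhaf2 (-0.36 and -0.94) were likewise called in the larger set only.

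With siAHR-2 none of the 40 genes was called, against 0.47% of all genes, and 24 had an unadjusted p under 0.05 in limma, as did 40.4% of all genes. With siAHR-5 1 was called, against 2.32% of all genes. The direction was lower, as for 0.849% of all genes. The called gene was Got1, the cytosolic aspartate aminotransferase that works beside Mdh1 in the malate-aspartate shuttle. Got1 had a mean of 14.57 (SD 0.0261, n = 3) with siCtrl, 14.35 (SD 0.0333) with siAHR-2 and 13.52 (SD 0.0170) with siAHR-5, and its log2FC was -0.21 and -1.05 (limma adjusted p = 0.00267 and 5.70e-05). The difference between the siRNAs of 0.84 was itself called (adjusted p = 5.21e-05).

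**Figure D5:**
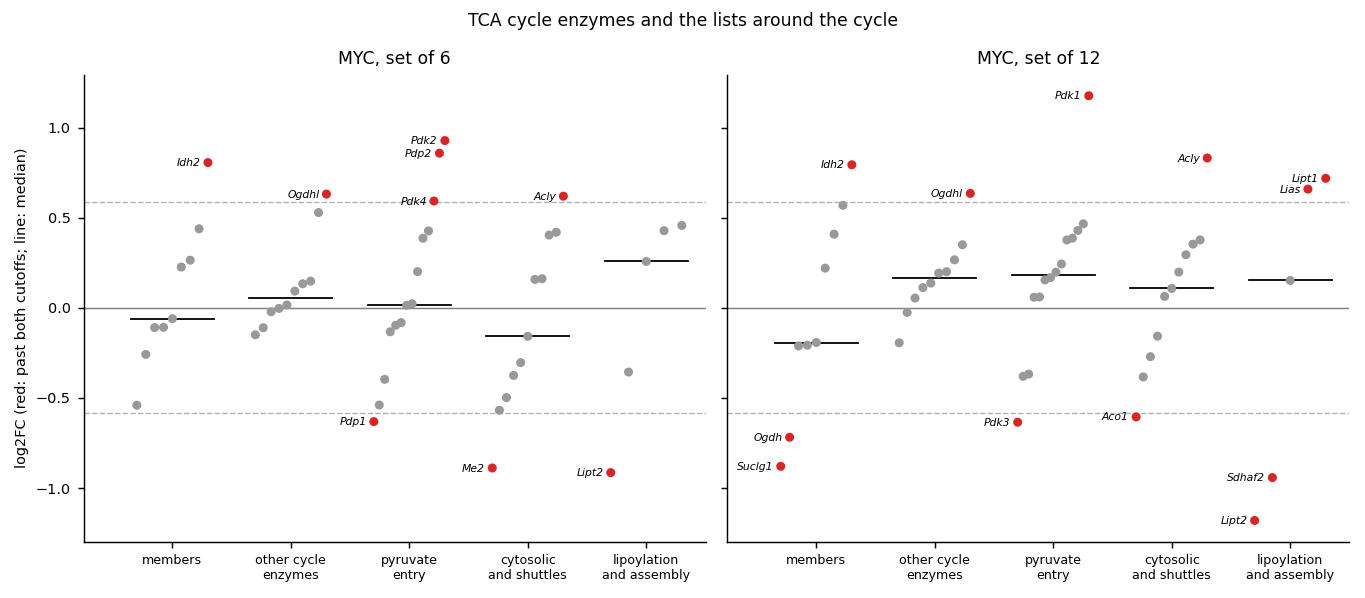
log2FC with MYC (vertical axis) of the 9 enzymes (members) and of the 40 genes of the 4 lists around the cycle, in the smaller set (left) and the larger set (right), with red points for genes past both cutoffs, grey points for the others, black lines for list medians and dashed lines at a fold of 1.5. Idh2, Ogdhl and Acly are red and higher in both panels, and Lipt2 is red and lower in both.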

How the data were processed

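RNA-seq libraries of 18 cultures in 6 groups of 3 were used. Per the study's methods, reads passed the NGS-QC-Toolkit and were aligned to rn6 with HISAT2 2.1.0. The authors dropped genes under 10 reads in total and normalized the rest with DESeq2. The table deposited by the authors holds log2 expression values for each library and 13188 genes. The read counter, annotation and log transformation are not given in the sources used here. Off the log scale a library sums to 86.3 to 161 times the sum of a CPM library, so the values are not CPM, and read depth and its precision are unknown. There were 0 value columns without a sample.

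Groups and replicate numbers came from the sample labels. The 9 enzymes and the gene lists were chosen with earlier results of these data known. Named were each enzyme, each listed gene called in the same direction in both MYC comparisons or with either siRNA, the gene with the largest change of each list in each MYC comparison, and the 3 genes closest to the enzyme with the largest change in the larger set. Lias, Lipt1, Sdhaf2, Pdk3, Pdk4, Pdp1, Pdp2, Col1a1, Fn1, Col3a1, Col1a2, Krt8, Thy1, Pdgfrb, Vim and Idh3g were named after their values were seen. limma 3.58.1 (R 4.3.3) was fitted to the groups compared, with a mean-variance trend in eBayes and Benjamini-Hochberg adjustment over all genes. Within-library differences were tested by 2-sided exact permutation (scipy 1.17.1), and Python 3.11.15 with matplotlib 3.10.9 drew the figures.

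Alternatives were a 5% FDR without fold cutoff, one fit for all libraries of a set, no trend, quantile normalization, median centring, genes with a mean log2 value of 1 or 6 and above, 1 added as pseudocount, a replicate block, and each library left out. Sequences are from RefSeq, build GRCr8, which is not the build of the reads.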

Additional observations from a re-analysis of the deposited data

Results flagged for a closer look

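Ogdh and Suclg1 were flagged because their differences with MYC were not of the same size in the larger and the smaller set. The contrast of the effects was -0.46 for Ogdh (SE 0.0934, limma adjusted p = 0.000715) and -0.34 for Suclg1 (SE 0.0535, limma adjusted p = 7.97e-05), and it was -0.44 and -0.36 after quantile normalization and -0.37 and -0.25 after median centring, where Fh and Mdh2 also passed the p cutoff. Leaving out each of the 12 libraries in turn gave -0.56 to -0.41 for Ogdh, farthest from 0 without the myc-/- library of replicate 2, and -0.37 to -0.30 for Suclg1.

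Fh and Suclg1 were flagged because the siRNAs against AHR differed. siAHR-5 minus siAHR-2 was -0.25 for Fh (SE 0.0183, limma adjusted p = 0.000407) and -0.0879 for Suclg1 (SE 0.0166, limma adjusted p = 0.00979), which for Suclg1 became 0.0177 after quantile normalization, with 3 of 3 siAHR-5 libraries below all siAHR-2 libraries for both. Ahr itself stood at 11.97 to 12.03 with siAHR-2 and 11.76 to 11.95 with siAHR-5. The cause of the difference was not tested.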

How the results depend on the processing

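Of 855 values of the 9 enzymes under the alternatives, 790 kept their sign and their call, 28 changed sign and 37 changed only their call. A value below the fold cutoff could cross the p cutoff without a change of call. With a 5% FDR and any fold, 8 enzymes passed for MYC in the smaller set, 9 in the larger, 4 with siAHR-2, 7 with siAHR-5, 5 between the siRNAs and 3 between the MYC effects, and 10051, 8538, 3860, 5169, 5151 and 7235 genes in all, against 3537, 3361, 62, 306, 287 and 2171 by both cutoffs. Quantile normalization called 2 enzymes in place of 1 for MYC in the smaller set and 4 in place of 3 in the larger, as did median centring in the larger, the added enzyme being Mdh2. Genes called with MYC split into 1653 higher and 1884 lower in the smaller set and 1425 and 1936 in the larger, and after quantile normalization into 1799 and 1684, and 1796 and 1660. The split with siAHR-5 was 194 higher and 112 lower, or 127 and 126 after quantile normalization and 140 and 165 after median centring, and that between the MYC effects was 896 and 1275, or 1148 and 1036 after median centring. Quantile normalization reversed Idh3a (0.0650), Dlst (0.119) and Mdh1 (0.158) with MYC in the smaller set, Dlst (0.0111) in the larger, Cs (0.00559), Idh3a (0.0247) and Mdh2 (0.0330) with siAHR-2, Mdh2 (0.00131) with siAHR-5, and Dlst (-0.0121) between the siRNAs. Median centring reversed Fh with siAHR-2 (-0.0209), Cs with siAHR-5 (-0.0573), Ogdh (-0.0214) and Dlst (-0.0175) between the siRNAs, and Cs (0.0412), Idh2 (0.0733) and Dlst (0.000868) between the MYC effects. The cause was not tested. Leaving out 1 library at a time reversed Fh with siAHR-2 (-0.00496 to 0.0210), Cs with siAHR-5 (-0.0122 to 0.0199), Ogdh between the siRNAs (-0.0383 to 0.0643) and Idh2 between the MYC effects (-0.0403 to 0.0299), and called 1 enzyme for MYC in the smaller set, 3 to 4 in the larger and 0 in the other comparisons. The myc-/- library of replicate 2 differed from its group by a root-mean-square of 0.168 over all genes, against 0.0609 to 0.107 for the others. Correlations of same-numbered cultures ran from -0.256 to 0.242 and were over 0.1 for every pair in no comparison. The replicate block changed no call of an enzyme but left 0 genes called in all for siAHR-2, with 5030 at an unadjusted p under 0.05. At any fold the block left 6 enzymes past the p cutoff for MYC in the smaller set (Dlst lost), 7 in the larger (Cs lost), 0 with siAHR-2 (Idh2 lost, limma adjusted p = 0.0291), 1 with siAHR-5 (Idh2, Suclg1 and Mdh1 lost), 1 between the siRNAs (Suclg1 lost) and 2 between the MYC effects, against 66.4%, 45.5%, 0%, 13.6%, 13.2% and 41.9% of all genes. Read depth is unknown, so what it limits cannot be given.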
